A study of Mus musculus with 6 samples.

Results

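Major histocompatibility complex (MHC) genes encode the proteins that show peptides to T cells, and 9 genes of this system were followed here in mouse pancreatic islets. They were taken as a named list, with earlier results of these data known but no rule on the members' measured values. The list was Cd74, H2-Aa, H2-Ab1, H2-Eb1 and Ciita for class II, and H2-K1, H2-D1, B2m and Tapbp for class I. Each of the 9 was linked to 1 locus of the authors' assembly, out of 39470 loci in all. No member was lost to the limit of 90% on exonic bases shared with another locus, and all 9 passed the filter on low counts.

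The islets came from C57BL/6 mice, an inbred laboratory strain, that were 14 weeks old at sacrifice and had been fed a normal diet or a high fat diet for 8 weeks. Each diet had 3 libraries of total RNA, freed of ribosomal RNA, and nothing else separates the groups in the labels. Islets are clusters of hormone-secreting cells in the pancreas that also hold endothelial cells and resident macrophages. In the count table the columns taken for the high fat libraries are headed HDR, which is not explained there, so that every direction below depends on reading HDR as the high fat diet.

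MHC class I molecules sit on nearly all cells and present peptides from proteins made inside the cell. Their heavy chain pairs with beta-2 microglobulin and is loaded in the endoplasmic reticulum by a complex around tapasin and the TAP peptide transporter. Class II molecules are alpha and beta chain pairs, mostly restricted to antigen-presenting cells such as macrophages, dendritic cells and B cells, and present peptides from proteins taken up from outside. The invariant chain escorts them to the endosome, and the coactivator CIITA switches on the whole class II set. In the resting islet, resident macrophages are the best known class II cells.

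Both classes of gene share a promoter layout known as the S-X-Y module, in which a CRE-like element and an inverted CCAAT box lie a short distance before the start. RefSeq windows (build GRCm38.p6) of 250 bases before the start were used for 6 of the 9 members. None was given for H2-Ab1 and Ciita, and Cd74 was left out. They were searched on both strands for CCAAT (the CCAAT box, bound by NF-Y), TGACG (the core of the cyclic AMP response element, bound by CREB factors), GAAANNGAAA (the core of the interferon-stimulated response element) and TTCNNNGAA (the core of the gamma-activated site). Of 32851 such windows of all genes, 33.8% held CCAAT, 17.8% TGACG, 2.98% GAAANNGAAA and 7.02% TTCNNNGAA. The windows below are shown because H2-Aa of class II and H2-K1, H2-D1 and B2m of class I hold TGACG and ATTGG at nearly the same spacing, with H2-Eb1 as a class II window that lacks TGACG. Each runs 5′ to 3′ on the strand of its gene, and capitals mark the matches. ATTGG is CCAAT read from the other strand, and in H2-Aa the TGACG matches of the 2 strands overlap in TGACGTCA.
H2-Aa, chr17:34287824-34288073, minus strand: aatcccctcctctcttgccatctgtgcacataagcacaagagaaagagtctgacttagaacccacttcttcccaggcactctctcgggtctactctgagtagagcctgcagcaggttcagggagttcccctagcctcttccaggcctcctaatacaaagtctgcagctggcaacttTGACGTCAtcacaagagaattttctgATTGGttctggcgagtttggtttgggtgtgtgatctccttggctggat
H2-Eb1, chr17:34305617-34305866, plus strand: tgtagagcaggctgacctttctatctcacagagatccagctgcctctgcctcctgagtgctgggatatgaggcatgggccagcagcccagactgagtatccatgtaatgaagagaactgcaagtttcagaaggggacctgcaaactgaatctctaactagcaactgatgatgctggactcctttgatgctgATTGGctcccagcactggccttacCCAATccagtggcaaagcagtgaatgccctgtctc
H2-K1, chr17:34000348-34000597, minus strand: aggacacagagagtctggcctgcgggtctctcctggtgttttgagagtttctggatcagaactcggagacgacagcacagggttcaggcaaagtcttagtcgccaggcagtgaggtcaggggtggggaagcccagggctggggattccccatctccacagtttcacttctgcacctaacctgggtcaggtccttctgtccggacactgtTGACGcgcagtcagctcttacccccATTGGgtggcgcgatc
H2-D1, chr17:35262844-35263093, plus strand: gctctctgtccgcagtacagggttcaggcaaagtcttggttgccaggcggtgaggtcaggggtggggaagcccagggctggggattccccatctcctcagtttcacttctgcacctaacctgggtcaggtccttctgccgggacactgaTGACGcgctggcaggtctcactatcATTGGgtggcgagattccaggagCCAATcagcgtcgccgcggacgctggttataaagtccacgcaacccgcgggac
B2m, chr2:122147437-122147686, plus strand: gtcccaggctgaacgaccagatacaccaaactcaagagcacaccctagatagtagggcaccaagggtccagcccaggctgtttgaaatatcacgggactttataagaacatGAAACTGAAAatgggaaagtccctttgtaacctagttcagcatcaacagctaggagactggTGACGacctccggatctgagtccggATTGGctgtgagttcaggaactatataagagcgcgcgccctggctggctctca

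From the first base of TGACG to the first base of ATTGG there were 26 bases in H2-Aa, a class II alpha chain gene, and 25 bases in H2-K1, H2-D1 and B2m, which are class I genes. H2-Eb1, the class II beta chain gene of I-E, held no TGACG but an ATTGG 59 bases and a CCAAT 35 bases before the start. The arrangement of TGACG followed by ATTGG with starts 25 or 26 bases apart stood in 27 of the 32851 windows (0.0822%), belonging to 24 genes. Of these genes 4 are members and another is H2-M3, also a class I gene. This spacing was searched for after the matches had been seen, and a match is a description of letters, not of a bound site. B2m alone of the 6 held GAAANNGAAA, 139 bases before the start, and TTCNNNGAA was in none of them. Only exact matches were counted, so that elements with other letters would be missed. Tapbp, at the same RefSeq build, held ATTGG 248 and 165 bases before the start and no TGACG.

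Library totals ran from 104657337 to 135353777 counted reads, so that the members, at 280 to 60646 reads per library, rested on ample counts with Ciita as the least covered. Values are CPM, a locus's share of the counted reads brought to a fixed total, after TMM normalisation, which scales libraries to each other. Counts were tested with edgeR's quasi-likelihood test, two-sided, and p-values were adjusted by Benjamini-Hochberg over all 23983 loci tested. Separate animals are not named in the labels. The p-values therefore rest on the spread among 3 libraries per diet, part of which may be technical. On the second principal component high fat library 3 was at 59.4 and its fellow libraries at -32.3 and -25.5.

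The 5 class II genes were all lower on average on the high fat diet, at 0.736 to 0.898 times their normal diet level, but no member passed the test. The 4 class I genes were at 1.02 to 1.14 times theirs, values that turned below 1 for all 4 without TMM and for all but B2m under cyclic loess. In all, 0 of 9 members had an adjusted p under 0.05 in edgeR's test, where 10.8% of all loci tested did, 5.95% higher and 4.86% lower on the high fat diet. Unadjusted p-values under 0.05 were found for 3 of 9, Cd74, H2-Ab1 and Ciita, all lower (16.4% of all loci were lower at that level). In 4 of 9 members the high fat libraries all lay below the normal diet libraries, where 20.4% of all loci did so and 39.2% did not overlap in either direction. The median log2 fold change was -0.23 over the 5 class II genes and 0.08 over the 4 class I genes. All loci tested had a median of -0.05, and the 9377 loci with a mean of at least 10 CPM had 0.14, with 71.6% of them above 0. In bulk tissue, fewer cells of a type and less RNA per cell cannot be told apart.

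**Figure D1:**
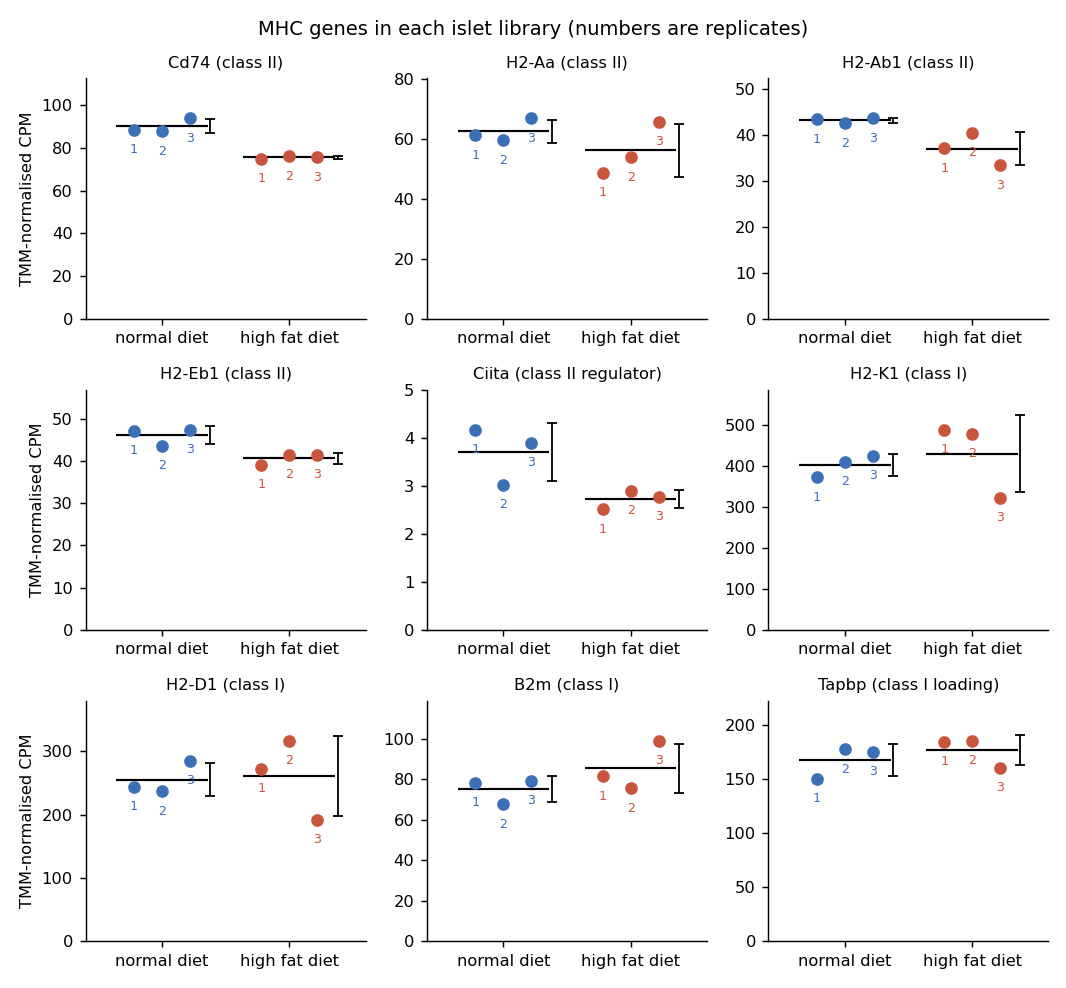
TMM-normalised CPM (vertical axes, from 0) of the 9 MHC genes in each library, with normal diet in blue and high fat diet in red; numbers are replicates, black lines group means and bars the SD of 3 libraries. Cd74, H2-Ab1, H2-Eb1 and Ciita have all high fat libraries below all normal diet libraries, and H2-K1 and H2-D1 have high fat library 3 as their lowest library.

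Cd74 encodes the invariant chain, the chaperone that fills the class II groove until the endosome. Its locus is on chromosome 18, plus strand, 60963503 to 60972306 (mm9, as for all loci below), and 2 transcripts with 1415 exonic bases were assembled. It stood at 88.7, 88.0 and 93.9 CPM on the normal diet and at 75.1, 76.2 and 75.7 CPM on the high fat diet. The high fat libraries lay close together and below every normal diet library, high fat library 3 included. Means were 90.2 ± 3.23 and 75.6 ± 0.548 CPM (SD, n = 3 each). The log2 fold change was -0.25 (SE 0.0739, edgeR adjusted p = 0.0581). Cd74 thus had the lowest adjusted p of the 9 and missed the threshold by little. It passed in 4 of 17 other settings, listed at the end, and was negative in all of them; with high fat library 3 left out it was at -0.25 (edgeR adjusted p = 0.034).

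H2-Aa and H2-Ab1 encode the alpha and beta chains of I-A, the class II molecule of this strain. The H2-Aa locus lies on chromosome 17 from 34419696 to 34424936 on the minus strand, and its 5 assembled transcripts include ones that keep introns. H2-Aa was at 61.3, 59.6 and 66.9 CPM on the normal diet and at 48.8, 54.0 and 65.8 CPM on the high fat diet. High fat library 3 lay among the normal diet libraries and the other 2 lay below them. The log2 fold change was -0.15 (SE 0.118), with an edgeR adjusted p of 0.394. With high fat library 3 left out, H2-Aa passed the test at -0.28 (edgeR adjusted p = 0.0421).

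The H2-Ab1 locus covers chromosome 17, plus strand, 34400172 to 34406363, with 1200 exonic bases. It was measured at 43.3, 42.5 and 43.5 CPM on the normal diet and 37.0, 40.4 and 33.3 CPM on the high fat diet. The normal diet libraries were close together, and high fat library 3 was the lowest of the 6, opposite to its place in H2-Aa. Its log2 fold change was -0.23 (SE 0.0955, edgeR adjusted p = 0.145). The ratio of the alpha to the beta chain gene was 1.41, 1.40 and 1.54 on the normal diet, and 1.32, 1.34 and 1.98 on the high fat diet.

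H2-Eb1 encodes the beta chain of the other class II molecule, I-E. In the b haplotype of C57BL/6 the I-E alpha chain gene is defective, so that no I-E reaches the surface although the beta chain gene is transcribed. The locus matched to H2-Ea-ps, the symbol of that alpha chain gene in the annotation, held 2 reads over all 6 libraries. H2-Eb1 itself, on the plus strand of chromosome 17 at 34442812 to 34453619, was at 47.2, 43.7 and 47.5 CPM on the normal diet and 39.2, 41.5 and 41.5 CPM on the high fat diet. The groups did not overlap, and the fold change was -0.18 on the log2 scale (SE 0.0833, edgeR adjusted p = 0.175).

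Ciita encodes the transactivator that the class II promoters need, and it was the least abundant member. Its locus, on the plus strand of chromosome 16 at 10480133 to 10528790, held 9 assembled transcripts over 9027 exonic bases. It stood at 4.18, 3.03 and 3.91 CPM on the normal diet and at 2.52, 2.90 and 2.78 CPM on the high fat diet. Normal diet library 2 came close to the high fat libraries, but the groups did not overlap. At -0.44 the log2 fold change (SE 0.165, edgeR adjusted p = 0.107) was the largest of the 9 in size, with an SE exceeded only by that of H2-D1. The 17 other settings gave -0.588 to -0.306, none of them past the threshold.

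**Figure D2:**
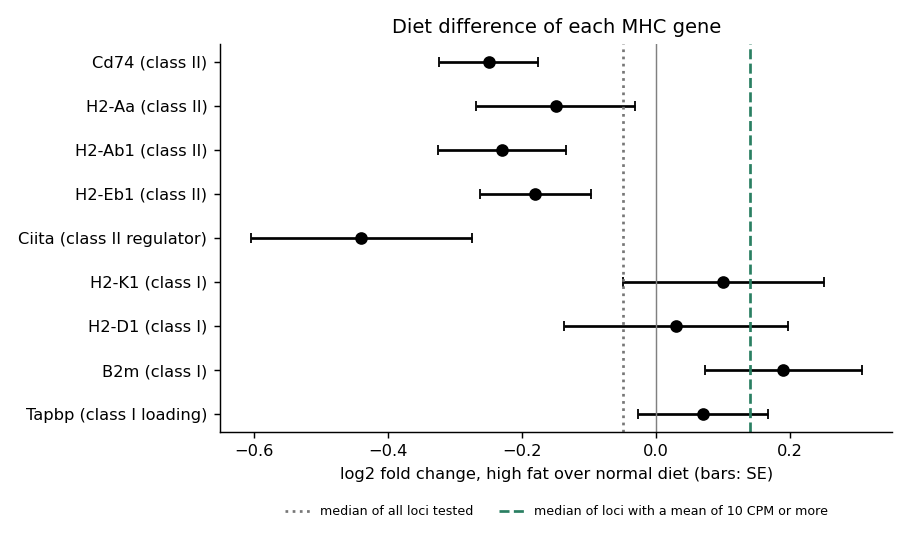
Log2 fold change of each MHC gene, high fat over normal diet (horizontal axis), with its SE; the dotted line is the median of all loci tested and the dashed line that of loci with a mean of 10 CPM or more. The 5 class II genes lie left of both lines, at -0.44 to -0.15, and the 4 class I genes at 0.03 to 0.19, of which all 4 turn negative without TMM, all but B2m under cyclic loess, and H2-D1 in 8 of 17 other settings.

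H2-K1 and H2-D1 encode the class I heavy chains K and D, and were the most abundant members. H2-K1, on chromosome 17 from 34132957 to 34137278 on the minus strand, was at 372, 411 and 425 CPM on the normal diet and 489, 479 and 322 CPM on the high fat diet. High fat libraries 1 and 2 were the highest of the 6 and high fat library 3 was the lowest. Over all libraries the log2 fold change was 0.10 (SE 0.15, edgeR adjusted p = 0.697). With high fat library 3 left out, H2-K1 passed the test at 0.27 (edgeR adjusted p = 0.0341), whereas without TMM it was -0.13 and under cyclic loess -0.18.

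H2-D1 lies on chromosome 17, plus strand, and was assembled from 35400039 to 35462354 in 6 transcripts. Of these 2 reach to 35462354, past the locus of H2-Q1 (35457503 to 35462044), while the others end by 35404442. H2-D1 was at 244, 237 and 285 CPM on the normal diet and 273, 317 and 192 CPM on the high fat diet. High fat library 2 was the highest and high fat library 3 the lowest library. The log2 fold change was 0.03 (SE 0.167, edgeR adjusted p = 0.916) and changed sign in 8 of 17 other settings. Some class I genes share stretches of sequence: 4.64% of the 100-base stretches of the H2-D1 transcript also occur in transcripts of other genes. A part of its reads could thus be split with those of H2-Q genes. For H2-K1 that share was 0%. The neighbouring class I genes, looked up after these values were seen, differed widely, with 10 reads over all 6 libraries for H2-Q1 and 122 ± 7.91 CPM on the normal diet for H2-Q2 (134 ± 14.0 CPM on the high fat diet, edgeR adjusted p = 0.369).

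B2m encodes beta-2 microglobulin, the light chain that every class I heavy chain needs. Its locus, on the plus strand of chromosome 2 at 121973423 to 121978818, had 78.4, 67.8 and 79.4 CPM on the normal diet and 81.7, 75.6 and 99.2 CPM on the high fat diet. High fat library 3 was the highest library, the reverse of its place in both heavy chain genes. The fold change on the log2 scale was 0.19 with an SE of 0.117 (edgeR adjusted p = 0.304), and it was -0.02 without TMM.

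Tapbp encodes tapasin, which holds class I molecules at the TAP transporter until they have bound peptide. Its locus is on chromosome 17, plus strand, 34056423 to 34066235, and another locus covers 14.0% of its exonic bases. It was at 150, 177 and 175 CPM on the normal diet and 184, 185 and 160 CPM on the high fat diet, with normal diet library 1 the lowest. High fat libraries 1 and 2 were the highest. The log2 fold change was 0.07 (SE 0.0965, edgeR adjusted p = 0.638), and -0.13 both without TMM and under cyclic loess.

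Levels of different genes were compared per length, as CPM per kilobase of the longest reference coding transcript. On the normal diet H2-K1 was highest at 249 ± 17.1 CPM per kilobase, followed by H2-D1 at 121 ± 12.5 and B2m at 87.4 ± 7.45 (SD, n = 3). Cd74 at 64.0 ± 2.29, Tapbp at 57.8 ± 5.2 and H2-Aa at 55.5 ± 3.37 CPM per kilobase came next, with Tapbp and H2-Aa within 1 SD of each other. H2-Ab1 was at 35.6 ± 0.462, H2-Eb1 at 27.7 ± 1.26 and Ciita at 0.617 ± 0.1 CPM per kilobase. On the high fat diet H2-K1 was at 266 ± 57.9 CPM per kilobase, and H2-D1 at 124 ± 30.3 and B2m at 99.4 ± 14.2 overlapped within 1 SD. Tapbp at 60.8 ± 4.83 then stood above Cd74 at 53.6 ± 0.389 and H2-Aa at 49.8 ± 7.72 CPM per kilobase, the last 2 within 1 SD. H2-Ab1 was at 30.4 ± 2.93, H2-Eb1 at 24.4 ± 0.792 and Ciita at 0.455 ± 0.0325 CPM per kilobase. The order depends on the length used: over all exonic bases of each locus, which include retained introns, B2m came to 31.1 and H2-Aa to 25.6 CPM per kilobase on the normal diet, below Cd74 at 63.8.

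Ratios between genes of one library need no scaling between libraries. Each member was set against Cd74, in a family of 17 ratios chosen after the values were seen. Cd74 itself was lower on average on the high fat diet (log2 fold change -0.25), whereas loci with a mean of at least 10 CPM had a median of 0.14. A higher ratio to Cd74 therefore need not mean a rise of the other gene. How many of all loci would lie without overlap in such a ratio was not counted. B2m relative to Cd74 was 0.883, 0.770 and 0.845 on the normal diet and 1.09, 0.993 and 1.31 on the high fat diet. Every high fat library lay above every normal diet library, a log2 difference of 0.43 (exact permutation p = 0.1, two-sided, the smallest that 3 against 3 libraries can give; 0.85 adjusted over the 17 ratios). Tapbp relative to Cd74 was 1.69, 2.01 and 1.87 on the normal diet and 2.45, 2.42 and 2.11 on the high fat diet, also without overlap (log2 difference 0.33, exact permutation p = 0.1, adjusted 0.85).

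The heavy chains were split by library in the same measure. H2-K1 relative to Cd74 was 4.19, 4.67 and 4.53 on the normal diet and 6.52, 6.29 and 4.26 on the high fat diet, with high fat library 3 among the normal diet libraries (exact permutation p = 0.3, adjusted 0.85). H2-D1 relative to Cd74 was 2.75, 2.69 and 3.04, against 3.64, 4.16 and 2.54 on the high fat diet (exact permutation p = 0.4, adjusted 0.85). The class II genes kept close to Cd74: H2-Eb1 ran from 0.497 to 0.532 of it on the normal diet and from 0.523 to 0.549 on the high fat diet. H2-Ab1 ran from 0.463 to 0.488 and from 0.440 to 0.530, and H2-Aa from 0.677 to 0.712 and from 0.650 to 0.870. Ciita was at 0.0344 to 0.0471 of Cd74 on the normal diet and 0.0335 to 0.0381 on the high fat diet. The 4 class II ratios overlapped between the diets, with log2 differences of -0.18 to 0.09 and exact permutation p-values of 0.2 to 0.8 (adjusted 0.85 to 0.971).

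**Figure D3:**
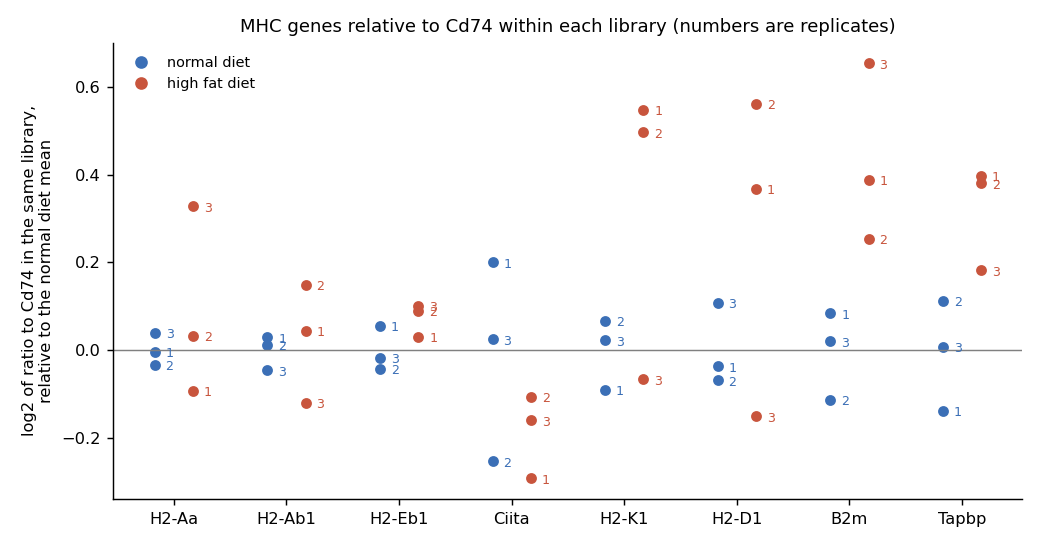
Log2 ratio of each MHC gene to Cd74 in the same library (vertical axis), centred on the normal diet mean, with blue points for normal diet and red points for high fat diet libraries and replicate numbers beside them. B2m and Tapbp have all 3 high fat libraries above all normal diet libraries, and H2-K1 and H2-D1 have high fat libraries 1 and 2 above them and library 3 not. Cd74 itself was lower in all high fat libraries, so a higher ratio need not mean a rise of the other gene.

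Across the 6 libraries, log2 CPM of Cd74 was compared by Pearson's r with that of 11613 named loci with a mean of at least 1 CPM, as a description of libraries that share their depth and composition. The 5 most alike were Ypel2 (0.996), T2 (0.993), Slc25a5-ps (0.993), Fam166a (0.991) and Psmb9 (0.989), the last a subunit of the immunoproteasome. Among the members, H2-Eb1 had r = 0.927 with Cd74, Ciita 0.853, H2-Ab1 0.817 and H2-Aa 0.587. Their ranks among the 11613 loci were only 123, 449, 653 and 1824, so that many other loci were more like Cd74. The class I genes had 0.081 (H2-D1), -0.135 (H2-K1), -0.274 (Tapbp) and -0.475 (B2m). For H2-K1 the 5 most alike were Mfsd5 (0.998), Commd5 (0.997), Tmbim6 (0.995), Chga (0.993), which encodes the granule protein chromogranin A, and Avpi1 (0.993). H2-D1 and Tapbp had r = 0.892 and 0.834 with H2-K1 (ranks 782 and 1246), and B2m had -0.564.

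Genes that work with the members were taken from lists, counting only loci that match a single gene of the list or close copies within it. In the class I pathway 14 loci were tested, of which 2 rose and 0 fell, with a median log2 fold change of 0.06. The 2 are chaperones that serve all glycoproteins of the endoplasmic reticulum as well as class I. Pdia3, the disulfide isomerase of the loading complex, rose from 555, 609 and 573 CPM to 734, 690 and 766 CPM, by 0.33 on the log2 scale (SE 0.0785, edgeR adjusted p = 0.0355). Canx, calnexin, rose from 1737, 1940 and 1872 CPM to 2218, 2202 and 2352 CPM (0.29, SE 0.0781, edgeR adjusted p = 0.0494). In both the high fat libraries were all above the normal diet libraries, high fat library 3 the highest. These calls and the others named below end when normal diet library 1, 2 or 3 is left out or acinar level is a covariate, since edgeR then called 0 loci of any kind.

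Other genes of the class I pathway did not pass the test. H2-T22, a class I gene outside the classical set, was at 42.0 ± 1.74 CPM on the normal diet and at 57.3, 58.2 and 46.9 CPM on the high fat diet, without overlap (0.37, edgeR adjusted p = 0.0547). Tap1, a TAP transporter subunit, was at 18.1 to 18.7 CPM on the normal diet and at 18.0, 18.3 and 13.3 CPM on the high fat diet (-0.15, edgeR adjusted p = 0.468). Tap2, the other subunit, whose exonic bases were shared to 70.3%, was at 9.20 to 10.4 and at 11.6, 10.8 and 3.83 CPM. High fat library 3 was thus the lowest in both, as in H2-K1 and H2-D1. Nlrc5, the class I counterpart of Ciita, was at 2.98, 1.34 and 1.96 CPM on the normal diet and 1.17, 1.27 and 1.83 CPM on the high fat diet (-0.56, edgeR adjusted p = 0.233).

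The immunoproteasome, the proteasome form that interferon induces and that cuts peptides for class I, had 0 of 6 loci past the test and a median log2 fold change of -0.27. Its catalytic subunit genes Psmb8 and Psmb9 and the activator gene Psme2 did not overlap between the diets, all lower. Psmb10, Psme1 and Psme3 overlapped, and 20.4% of all loci tested lay lower without overlap. Psmb9 was at 6.99, 6.73 and 7.38 CPM on the normal diet and 5.44, 5.73 and 5.35 CPM on the high fat diet (-0.35, edgeR adjusted p = 0.0848). Psme2 was at 3.23 ± 0.21 and 2.60 ± 0.0829 CPM (-0.31, edgeR adjusted p = 0.156). The most abundant of the list, Psme3, which encodes an activator of the nuclear proteasome, stood at 0.09 (edgeR adjusted p = 0.476).

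Of the class II pathway, the endosomal proteases and peptide exchange factors, 10 loci were tested, of which 1 rose and 0 fell (median 0.03). Ctsl, cathepsin L, a lysosomal protease of many cell types, rose from 274, 268 and 298 CPM to 349, 390 and 379 CPM (0.41, SE 0.0812, edgeR adjusted p = 0.0268). Ctss, cathepsin S, which trims the invariant chain in antigen-presenting cells, was at 51.8, 46.5 and 52.1 CPM on the normal diet and 45.8, 44.9 and 57.5 CPM on the high fat diet (-0.02, edgeR adjusted p = 0.92). H2-DMa, a chain of the peptide exchange factor H2-M, was at 4.95 ± 0.136 and 4.78 ± 0.638 CPM (-0.05, edgeR adjusted p = 0.831).

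The factors that bind class II promoters, namely the RFX and NF-Y complexes and Creb1, had 0 of 6 loci past the test (median 0.01). Rfxank, an RFX subunit gene, was at 17.2, 16.2 and 16.0 CPM on the normal diet and 13.4, 13.3 and 14.0 CPM on the high fat diet (-0.28, edgeR adjusted p = 0.0973). Nfyb, an NF-Y subunit gene, was at 55.6 ± 1.09 and 66.0 ± 6.46 CPM (0.25, edgeR adjusted p = 0.103). Nfyc, the most abundant, stood at -0.28 (edgeR adjusted p = 0.251), with 87.4 CPM in normal diet library 1 and 53.7 to 61.9 CPM in the other 5.

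Interferon gamma is a strong inducer of Ciita and of class I genes. In its signalling list 0 of 8 loci passed (median 0.02), and Ifng itself, the ligand gene, was at 0.0351 CPM or lower in all 6 libraries. The receptor genes Ifngr1 and Ifngr2 had all high fat libraries above the normal diet libraries, with log2 fold changes of 0.27 and 0.33 (edgeR adjusted p = 0.0765 and 0.0746). Irf8, another gene of the list, lay lower without overlap at 2.99 ± 0.134 and 2.38 ± 0.134 CPM (-0.33, edgeR adjusted p = 0.143). Counting both directions, 39.2% of all loci tested did not overlap. Jak1, the kinase gene and the most abundant of the list, stood at 0.03, and Irf1, a transcription factor of the response, at -0.08 (edgeR adjusted p = 0.549). Of the costimulation list, the surface proteins that accompany MHC in T cell contact, 0 of 6 passed (median -0.02). Its most abundant gene was Cd274, which encodes the inhibitory ligand PD-L1, at 30.2 ± 0.808 and 26.7 ± 3.94 CPM (-0.18, edgeR adjusted p = 0.33). Cd83, a maturation marker of dendritic cells, stood at -0.31 (edgeR adjusted p = 0.369).

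**Figure D4:**
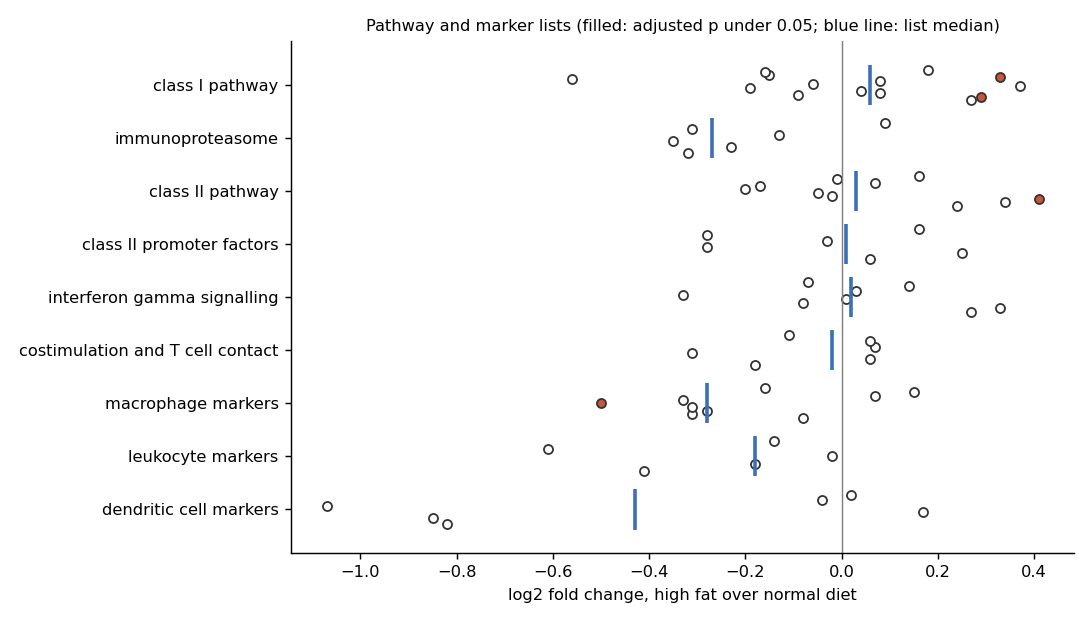
Log2 fold changes, high fat over normal diet (horizontal axis), of the tested loci of the 6 pathway lists and of the macrophage, leukocyte and dendritic cell marker lists; filled points have an adjusted p under 0.05 and blue lines are list medians. Among these 9 lists the filled points are Pdia3 and Canx in the class I pathway, Ctsl in the class II pathway and Csf1r among macrophage markers, and their medians run from -0.43 for dendritic cell markers to 0.06 for the class I pathway.

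Markers of the cells that carry class II were present. Of the macrophage list 9 loci were tested, of which 1 fell, 7 had negative log2 fold changes and the median was -0.28. Their summed level was 175 to 184 CPM on the normal diet and 113 to 168 CPM on the high fat diet, of which C1qa, a complement gene, made up the most with 116, 114 and 119 CPM, then 108, 116 and 56.1 CPM. Csf1r, the receptor gene for the macrophage growth factor, fell from 24.2 ± 2.63 CPM to 16.6, 15.2 and 19.6 CPM (-0.50, SE 0.13, edgeR adjusted p = 0.0458), and another locus covers 18.8% of its exonic bases. Adgre1, which encodes F4/80, was at 10.3, 10.4 and 12.1 CPM on the normal diet and 8.48, 9.23 and 13.3 CPM on the high fat diet (-0.08, edgeR adjusted p = 0.78). The list median of -0.28 is the value of C1qb, which was at only 0.0828 to 0.154 CPM and had 79.5% of its exonic bases shared. The part of macrophage content in the values of the class II genes was not tested.

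Set against such markers within each library, Cd74 showed no common direction. Cd74 relative to Csf1r was 3.76 ± 0.423 on the normal diet and 4.52, 5.02 and 3.86 on the high fat diet (exact permutation p = 0.3, adjusted 0.85). Relative to Adgre1 it was 8.59, 8.49 and 7.73, and 8.86, 8.26 and 5.70 on the high fat diet (exact permutation p = 0.8, adjusted 0.971). Relative to the sum of macrophage markers it was 0.490, 0.503 and 0.510, and 0.484, 0.453 and 0.667 on the high fat diet (exact permutation p = 1.0). These ratios overlapped between the diets, and high fat library 3 was the most distant library in the last 2. Relative to the leukocyte marker Ptprc and the dendritic cell marker Itgax, Cd74 differed by -0.22 and -0.21 on the log2 scale. Both overlapped as well (exact permutation p = 0.5 and 0.4, adjusted 0.944 and 0.85).

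Other leukocyte lists had 0 loci past the test in either direction. The pan-leukocyte list (5 loci, median -0.18) summed to 21.6 to 25.7 CPM on the normal diet and 19.2 to 21.9 CPM on the high fat diet, and its first marker Ptprc, which encodes CD45, was at 8.88 ± 0.934 and 8.77 ± 2.01 CPM. Dendritic cell markers (6 tested, median -0.43) summed to 8.32 to 9.56 and 6.65 to 9.75 CPM, with Itgax, which encodes CD11c, at 4.5 ± 0.743 and 4.37 ± 0.809 CPM. In 2 of these 6, named after their values were seen, all high fat libraries lay below the normal diet libraries, where 20.4% of all loci tested did so. Flt3, a growth factor receptor gene, was at 0.355 ± 0.0634 and 0.166 ± 0.0845 CPM (-1.07, edgeR adjusted p = 0.0843), and Cd209a, a lectin gene, at 0.405 ± 0.177 and 0.227 ± 0.0823 CPM (-0.85, edgeR adjusted p = 0.172). Both were at low levels. Of the rest, Batf3 (-0.82), Itgax (-0.04), Zbtb46 (0.02) and Clec9a (0.17) overlapped between the diets. The part of dendritic cells in the class II values was not tested. B cell markers (3 tested, median 0.60) summed to 1.04 to 1.51 and 0.812 to 1.39 CPM. Among them Cd79a, the most abundant, lay lower without overlap at 0.849 ± 0.236 and 0.501 ± 0.0586 CPM (-0.76, edgeR adjusted p = 0.0768). Ms4a1 (0.79) and Cd79b (0.60) overlapped between the diets. T and NK cell markers (2 tested, median 0.07) summed to 0.465 to 0.68 and 0.327 to 0.848 CPM, with Cd3e at 0.032 CPM or lower in all libraries. No marker used in these lists was at 0 in all 6 libraries.

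The labelled tissue was also checked. Of 4 beta cell markers 2 rose, Iapp and G6pc2 (median 0.52), with summed levels of 55209 to 64993 and 79814 to 99790 CPM. Of 4 alpha cell markers 2 fell, Irx1 and Irx2 (median -0.58), with sums of 22136 to 24449 and 17357 to 21018 CPM. Endothelial markers, cells that carry much class I, had 0 of 8 past the test, a median of 0.05 and sums of 417 to 488 and 420 to 520 CPM. Acinar markers, from the exocrine pancreas, had 0 of 11 past the test (median 0.59) and sums of 3121 to 5993 and 4469 to 9599 CPM. The part of these cell types in the class I values was not tested.

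The direction of the class II genes held in each setting tried, and that of the class I genes did not. All settings refit the same libraries, in whole or in part. The setting on reads recovered from the scaled values repeats the raw counts and could not differ. Over 17 other settings Cd74 ran from -0.451 to -0.21, H2-Aa from -0.361 to -0.055, H2-Ab1 from -0.421 to -0.15 and H2-Eb1 from -0.373 to -0.135 in log2 fold change. Cd74 passed the threshold on the deposited scaled values over library totals (limma adjusted p = 0.0474), without TMM (0.017) and under cyclic loess (0.0402), and without high fat library 3 as given above. H2-Ab1 and H2-Eb1 passed without TMM (limma adjusted p = 0.0224 and 0.0293), a setting in which 3147 loci were lower and 298 higher. H2-K1 ran from -0.18 to 0.272, H2-D1 from -0.219 to 0.217, Tapbp from -0.128 to 0.143 and B2m from -0.022 to 0.275.

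**Figure D5:**
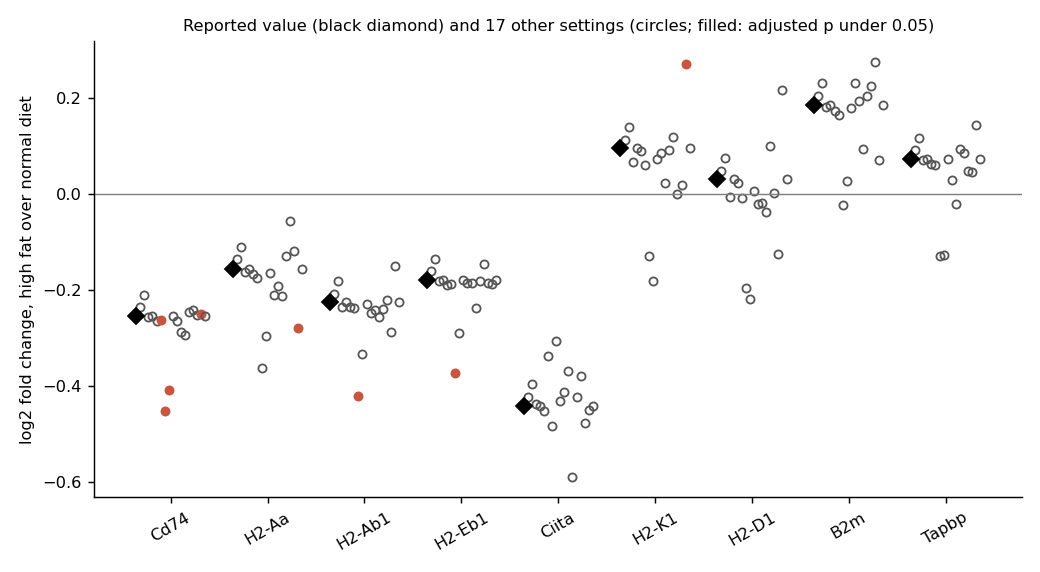
Log2 fold change of each MHC gene, high fat over normal diet (vertical axis), as reported (black diamonds) and under 17 other settings (circles, filled where the adjusted p was under 0.05). All circles of the 5 class II genes lie below 0, whereas H2-K1, H2-D1, B2m and Tapbp have circles on both sides of it; filled circles are seen for Cd74, H2-Aa, H2-Ab1, H2-Eb1 and H2-K1.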

How the data were processed

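RNA of 6 islet libraries was sequenced in pairs of reads. HTSeq 0.5.4p3, TopHat2 2.0.8, Cufflinks 2.1.1, edgeR and build mm9 are named in the submitters' processing notes; whether counting used strand is not given in the sources used here. The authors deposited raw counts per locus, assembled transcripts (98161) with coordinates in mm9, and scaled values (a signal), each a count times 1 constant per library: divided by it, 100% of values were whole within 0.001, and the count test on these reads called 1426 loci higher and 1165 lower, as on the raw counts. Depth is given with the results.

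The deposited transcripts carry no symbols. A locus took the symbol of a GENCODE M21 gene whose ordered exon and intron lengths it matched; of 40130 matches 40099 were on the same chromosome and strand, and introns shifted by 7 bases gave 0. Loci of 2 exons (1519) were allowed 40 bases at their ends. Named loci (19727) held 92.2% of counts. List genes without a locus, with over 90% of exonic bases shared, or on a locus that also matched a gene outside the list were left out, a rule set after the links were seen.

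R 4.3.3 was used with edgeR 4.0.16 (filterByExpr, TMM, quasi-likelihood test, threshold 0.05), limma 3.58.1 and DESeq2 1.42.0, and Python 3.11.15. Each SE is the log2 fold change over the root of its F statistic. The test was tried on simulated counts. The members and lists were chosen with earlier results of these data known. Named are all members, list genes past the threshold, otherwise the 2 with the smallest p and the most abundant, and the first marker of each list, of which some items are not reported here; further genes were named after their values were seen. Limma settings on CPM used log2 with a pseudocount of 1. No per-sample column was left unused.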

Additional observations from a re-analysis of the deposited data

How the results depend on the processing

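With all libraries 1426 loci were higher and 1165 lower on the high fat diet, and 0 members passed. DESeq2 called 2428 loci higher, and edgeR's exact test 2074 lower. Without TMM, a setting chosen after seeing the data, limma called 298 higher and 3147 lower (8.65% of calls higher, against 55.0%, and 43.8% by the exact test) and 3 members, all lower. Cyclic loess gave 249, 232 and 1 member, and scaled values over library totals 1 member. With acinar level as a covariate 0 loci passed either way (4983 at an unadjusted p under 0.05). Leaving out 1 library gave 0 to 3075 higher, 0 to 1960 lower and 0 to 3 members: 0 loci without normal diet library 1, 2 or 3 (5500, 6286 and 6294 unadjusted), 94 and 34 without high fat library 1, 57 and 29 without library 2, and 3075 and 1960 without library 3, where Cd74 and H2-Aa were lower and H2-K1 higher. The cause was not tested.

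The replicate block gave 54 higher and 20 lower (73.0% of calls higher) and 0 members. Libraries with the same number did not deviate together (r = -0.0749, 0.0747 and -0.0135). With 3 libraries per diet these values cannot decide whether the numbers pair them.

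H2-K1 reversed without TMM (-0.129) and under cyclic loess (-0.18), and ran from 0.0 to 0.272 without 1 library. H2-D1 reversed with voom (-0.006), scaled values (-0.007), without TMM (-0.196), under cyclic loess (-0.219) and with the acinar covariate (-0.021), and ran from -0.125 to 0.217 without 1 library. Tapbp reversed without TMM (-0.128) and under cyclic loess (-0.127), and ran from -0.02 to 0.143 without 1 library. B2m reversed without TMM (-0.022). Summed marker levels without TMM stayed within 1 SD in 16 of 18 cases. The other 2 were macrophage markers (180 to 193 CPM) and alpha cell markers (23143 to 24804 CPM), both on the normal diet. Mean endothelial sums changed order: 454 on the normal and 486 CPM on the high fat diet with TMM, 487 and 453 CPM without it. A second locus per member was not tried, since each matched 1. Class I reads from stretches shared between genes and transcripts that keep introns limit the levels of H2-D1, H2-Aa and B2m.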
